A study of Mus musculus with 24 samples.

Results

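The comparison described here set 3 Aim2-deficient CD4+ T cell libraries against 3 wild type (WT) libraries, all after 3 h with anti-CD3/CD28, antibodies that trigger the antigen receptor of T cells together with a costimulatory signal. The members were chosen by their labels alone: the 6 libraries of the 3 h time point among the 24 of the series. The WT libraries came from the mice labelled 1, 3 and 4, and the deficient libraries, AIM2-/- in the labels and Aim2-/- here, from the mice labelled 1, 2 and 4. Each library was made from cells of 1 mouse of C57BL6 background, and the same 6 mice also gave the libraries of 0, 6 and 24 h. Per the methods of the study, the deficient mice came from an established Aim2-deficient line, so the deficiency was not limited to T cells, and CD4+ cells were taken from spleen by removal of other cells with antibodies. Such a preparation can retain other spleen cells, and fewer cells of a type cannot be told apart from less RNA per cell in these counts. P values rest on a spread estimated over all 24 libraries of the series, taken as independent although each mouse gave 4 of them, and the 6 libraries of 3 h alone gave 2 calls where the whole series gave 45.

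AIM2 is a cytosolic protein that binds double-stranded DNA and, with the adaptor ASC, assembles an inflammasome that activates caspase-1. It belongs to the interferon-inducible Ifi200 family, whose genes lie beside each other on mouse chromosome 1. In the first hours after engagement of the T cell receptor, CD4+ T cells switch on immediate early transcription factors, then cytokines, chemokines and surface receptors, and begin to leave the resting state. Genes of immunoglobulins, granules and haemoglobin belong to other cells of the spleen and served here to tell T cell genes from genes of cells carried along.

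The 6 libraries held 20647678 to 21409678 counts. CPM below are counts per 1e6 counts of a library scaled by TMM factors, and values of libraries are listed in the order WT 1, 3 and 4, then Aim2-/- 1, 2 and 4. The term called marks genes with an adjusted p under 0.05, from edgeR's quasi-likelihood F test with the Benjamini-Hochberg method over all genes tested. Cd3e, a subunit of the T cell receptor complex, stood at 492 ± 23.5 CPM in WT and 506 ± 19 CPM in Aim2-/- cells (SD, n = 3 each). Cd4 stood at 549 ± 87.0 and 626 ± 57.4 CPM. Cd8a, which marks the other main T cell lineage, reached at most 2.06 CPM in any library, so the labelled cell type was borne by its defining markers in all 6.

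One library went against its label. Aim2 was at 17, 50.7 and 52.3 CPM in the WT libraries and at 14.6, 14.9 and 15.1 CPM in the Aim2-/- libraries. The library labelled WT 1 thus held 33.0% of the mean Aim2 level of the other 2 WT libraries and lay close to the Aim2-/- range, which it did not overlap. Counts per gene do not show single exons, so what remains in the Aim2-/- libraries could not be placed on the gene. The log2 difference (Aim2-/- minus WT, as throughout) was -1.43 (SE 0.53) and was not called, with an adjusted p of 0.224 in edgeR's test. Without the mouse labelled WT 1 it was -1.79 (SE 0.14), a description with no test, since that mouse was singled out by its Aim2 level. Values without that mouse stand below beside the sums and gene lists, and beside single genes for many of them.

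Genes of other cell types were measured first, as sums of CPM over marker lists. Immunoglobulin genes summed to 4387, 978 and 1089 CPM in the WT libraries and to 15918, 8278 and 12915 CPM in the Aim2-/- libraries, a ratio of the means of 5.75, or 11.97 without the mouse labelled WT 1. Markers of neutrophils and their precursors summed to 127, 40.3 and 59.0 CPM against 467, 154 and 199.9 CPM, a ratio of 3.62, or 5.51 without that mouse. Markers of basophils and mast cells, granulocytes of allergic responses, summed to 95, 82.9 and 93.1 CPM against 375, 138 and 212 CPM, a ratio of 2.68, or 2.75 without it. In these 3 lists the groups did not overlap. The same held for plasma cell markers (3.06 times, 4.18 without it), monocyte and macrophage markers (1.57 and 1.66 times) and markers of CD8 and NK cells (1.43 and 1.41 times). For these 6 lists the two-sided exact permutation test gave p = 0.1, the smallest that 3 mice against 3 allow, and 0.233 after adjustment over the 14 sums tested. Single genes weighed on some sums. On average Il1r2 made up 32.8% of the neutrophil sum and Il1rl1 30.2% of the basophil and mast cell sum. Pou2af1 made up 34.9% of the B cell sum and Jchain 64.7% of the plasma cell sum. Shares were larger still for Irf8 in the dendritic cell sum (83.2%), Itgb3 in the megakaryocyte sum (85.3%) and Cavin1 in the stromal sum (74.1%). Whether the T cells themselves gave part of these sums was not tested.

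Other sums overlapped between the genotypes. B cell markers summed to 132, 139 and 102 CPM against 185, 129 and 162 CPM, and Ms4a1, the B cell surface antigen CD20, reached at most 2.06 CPM. Erythroid markers summed to 157, 142 and 81.6 CPM against 639, 89.8 and 540 CPM, so that Aim2-/- 1 and 4 were high and Aim2-/- 2 lay within the WT range. MHC class II genes followed the same order, with ratios of the group means of 1.66 for MHC class II and 3.33 for erythroid genes. Of the neutrophil list Stfa1 was at 0 in all 6 libraries, and so was Pdpn of the stromal list. T cell receptor segments summed alike in both genotypes, with a ratio of 1.01, and genes of the receptor complex and its signalling had a ratio of 0.943. The mouse labelled WT 1 had the highest WT sum of immunoglobulin, plasma cell, neutrophil, monocyte and erythroid genes, and Aim2-/- 2 had the lowest Aim2-/- sum of each of these 5 lists. Between these 2 libraries the ratio was 0.973 for B cell markers, 0.993 for MHC class II, 1.03 for monocyte markers and 1.12 for plasma cell markers, while it was 0.571 for erythroid markers, 1.21 for neutrophil markers, 1.45 for basophil markers and 1.89 for immunoglobulin genes. The part of other cells in the results was not tested beyond a model with marker scores.

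**Figure D1:**
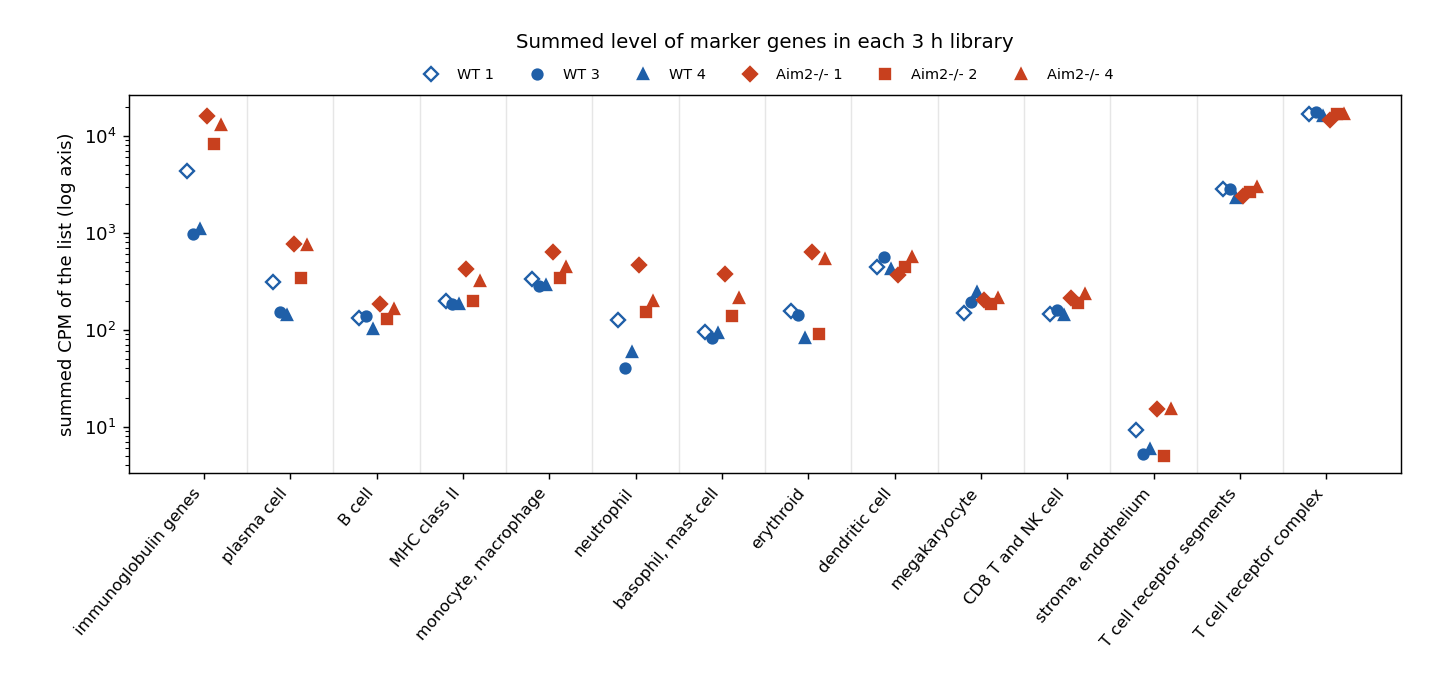
Summed CPM of each of the 14 gene lists of other cell types and of the T cell receptor in the 6 libraries of 3 h, on a log axis, 1 point per library; the open diamond is the library labelled WT 1. Immunoglobulin sums separate the genotypes (978 to 4387 CPM in WT, 8278 to 15918 CPM in Aim2-/-), while sums of T cell receptor segments overlap.

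Of 15325 genes tested, 45 (0.294%) were called between the genotypes at 3 h. In Aim2-/- cells 39 (0.254%) were higher and 6 (0.0392%) lower. The 45 held 13 immunoglobulin genes, 9 genes of lists of other cell types, 2 interferon-response genes, 1 T cell receptor segment and 20 genes of no list. None of the 188 tested genes of the T cell lists was called by edgeR with all 6 mice, of 2350 genes at an unadjusted p under 0.05 over the whole table. DESeq2 called 11 of the 188, beside 307 of all genes (2%), and limma-voom 4, beside 63 of all genes (0.411%). The median log2 difference over these 188 genes was 0.02, beside 0.00 over all genes, with 95 above 0.

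The 13 immunoglobulin genes were all higher in Aim2-/- libraries. Ighm, the heavy chain of IgM, stood at 854, 406 and 268 CPM in WT and at 4496, 2702 and 4180.2 CPM in Aim2-/- libraries. The lowest Aim2-/- library was above the highest WT library, the log2 difference was 2.90 (SE 0.42, adjusted p = 0.00642 in edgeR's test) and without the mouse labelled WT 1 it was 3.49. Igkv4-91, a kappa light chain variable segment, had 7 counts in the 3 WT libraries together and 1769 in the Aim2-/- libraries, a ratio of 245 (95% exact interval 118 to 609, counting error only). It was the 1 gene called in each of the 6 fits that left out a mouse. Variable segments share sequence, so the split of reads among them is uncertain. Over the 187 immunoglobulin genes tested the median log2 difference was 2.25, or 2.11 with the 10 genes absent from a group set to the bound that 3 counts give. Over the 195 tested without the mouse labelled WT 1 it was 3.61.

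Granule and enzyme genes made up most of the 9 called genes of other cell types, and all 9 were higher in Aim2-/- libraries. Prss34, a serine protease of basophils, stood at 7.27, 4.68 and 2.57 CPM against 71.1, 25.4 and 29.8 CPM, a log2 difference of 3.12 (SE 0.48), or 3.54 without the mouse labelled WT 1. Mcpt8, another basophil protease, stood at 5.0, 4.72 and 2.38 CPM against 48.7, 19.9 and 22.4 CPM. Mpo, the peroxidase of neutrophil precursors, stood at 20.7, 10.9 and 18.0 CPM against 138, 66.8 and 58.3 CPM. In each of these genes the groups were apart, and Aim2-/- 1 was highest. The log2 difference of Mcpt8 was 2.91 with all 6 mice and 3.09 without the mouse labelled WT 1, and that of Mpo was 2.60 without it. The others were Cpa3 of mast cells and basophils, Slpi, Ctsg and Ms4a3 of the neutrophil lineage, Alox5, a leukotriene enzyme of myeloid cells, and Ly6d of B cells. Over the whole lists 4 of 20 tested neutrophil genes, 3 of 13 basophil genes, 1 of 29 monocyte genes and 1 of 21 B cell genes were called, with median log2 differences of 2.71, 1.37, 1.60 and 1.36. No erythroid gene of 19, plasma cell gene of 8 or MHC class II gene of 10 was called by edgeR, although their medians were 2.08, 1.56 and 1.37. With the mouse Aim2-/- 2 left out, 14, 6 and 5 of these were called, beside 7.31% of all genes.

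Among the genes outside those classes, a few with levels above 20 CPM had groups that were well apart. Cxcl9, an interferon-gamma-induced chemokine that attracts CXCR3-bearing T cells, stood at 6.34, 4.72 and 5.05 CPM in WT and 35.0, 28.8 and 63.8 CPM in Aim2-/- libraries. The log2 difference was 2.98 (SE 0.45, adjusted p = 0.00754 in edgeR's test), and 3.12 without the mouse labelled WT 1. Myeloid cells are a known source of this chemokine, and beside it the monocyte sum was 1.57 times higher in the Aim2-/- libraries. With scores of B cell, monocyte and erythroid markers in the model the log2 difference of Cxcl9 was 2.33, and 2.37 without that mouse. Beyond that model the part of myeloid cells in this difference was not tested.

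Nmrk1, a kinase that makes NAD precursors, stood at 22.6, 17.9 and 21.7 CPM against 45.8, 32.1 and 42.9 CPM, a log2 difference of 0.96 (SE 0.16). Odc1, the first enzyme of polyamine synthesis, stood at 547, 532 and 513 CPM against 920.4, 646 and 879 CPM. Its log2 difference was 0.62 (SE 0.11), and Aim2-/- 2 was the lowest of its group in both Nmrk1 and Odc1. Foxj1, a forkhead factor of ciliogenesis that is also described in T cells, stood at 3.66, 3.21 and 3.04 CPM against 7.78, 7.11 and 8.05 CPM. Vopp1 differed less, at 62.3, 64.2 and 66.7 CPM against 85.4, 80.5 and 87.7 CPM, a log2 difference of 0.39. The log2 differences of Nmrk1, Odc1, Foxj1 and Vopp1 were 1.02, 0.64, 1.29 and 0.37 without the mouse labelled WT 1. The remaining genes of no list that were higher had low levels: Slamf9 and Tpbg had 7 and 6 counts in the 3 WT libraries together, against 72 and 50 in the Aim2-/- libraries. Of the 45 called genes 14 stayed under 5 CPM in their higher group, and 18 reached at least 20 CPM.

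Of the 6 genes that fell, 4 were in no list. Oas1b, an interferon-induced gene of the oligoadenylate synthetase family, stood at 31.8, 44.3 and 52.7 CPM in WT and at 21.5, 23.5 and 22.6 CPM in Aim2-/- libraries. The groups did not overlap, and the library labelled WT 1 was the lowest of WT. The log2 difference was -0.93 (SE 0.19, adjusted p = 0.0307 in edgeR's test), and -1.11 without that mouse. Med20, a subunit of the Mediator complex of transcription, stood at 71.3, 73.6 and 77.5 CPM against 54.3, 58.9 and 60.5 CPM, a log2 difference of -0.36. Sbk1, a protein kinase, stood at 45.0, 39.3 and 45.6 CPM against 33.6, 34.4 and 29.2 CPM, a log2 difference of -0.42. The library labelled WT 1 did not stand apart from WT in Med20 and Sbk1, and without that mouse both differences were -0.39. Gm19951 (log2 difference -1.15) and 9330175E14Rik (-0.86) are transcripts with clone names, and Trav7n-4 (-1.90), a T cell receptor alpha variable segment, was at most at 3.52 CPM and has near-identical copies.

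Without the mouse labelled WT 1, 43 of the 45 were called. Without WT 3 or Aim2-/- 4, 1 gene was called, without WT 4, 3 genes and without Aim2-/- 1, 20 genes. Of the 45, 33 were also called at 0 h, where 802 genes (5.23%) were called, 36 at 6 h, where 2421 (15.8%) were, and 15 at 24 h, where 102 (0.666%) were. Those libraries came from the same mice. Tmcc3, Fam135a, Oas1b, Vopp1, Wfikkn1 and Med20 were called at 3 h and at no other time. A call at 1 time alone is not a difference between times. In the test of that difference given below, with the mouse as a block, none of these genes was called against 0 or 6 h. Fam135a, Oas1b and Med20 were called against 24 h.

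**Figure D2:**
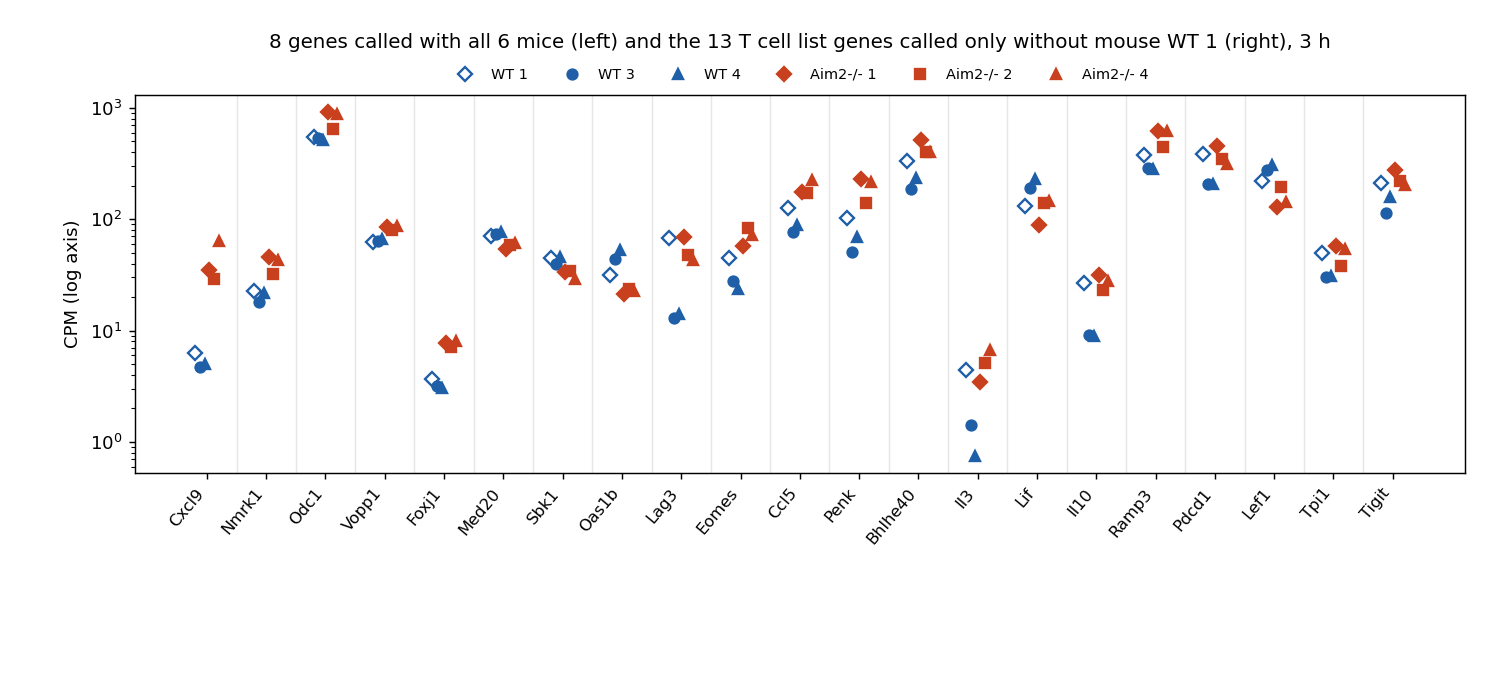
CPM in the 6 libraries of 3 h, on a log axis, of 8 genes called with all 6 mice and of 13 genes of T cell lists that were called only without the mouse labelled WT 1 (open diamond). In the first set the groups do not overlap (Cxcl9 4.72 to 6.34 against 28.8 to 63.8 CPM), while in the second the diamond lies near or among the Aim2-/- points for most genes, as for Lag3 at 68.0 CPM.

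The count of calls moved with every mouse left out, and it rose without either of 2 of them. Without the mouse labelled WT 1, 425 of 15656 genes (2.71%) were called, 308 higher (1.97%) and 117 lower (0.747%). These held 66 immunoglobulin genes, 19 genes of other cell types, 13 genes of the T cell lists, 10 Ifi200 genes, 4 interferon-response genes, 3 T cell receptor segments and 310 genes of no list. To see where the left-out mouse lay, its log2 CPM was placed on a scale with 0 at the mean of the other 2 WT libraries and 1 at the mean of the Aim2-/- libraries. Over the 425 genes the library labelled WT 1 had a median position of 0.731 (quartiles 0.529 and 0.932), and in 323 genes (76.0%) it was nearer the Aim2-/- mean. By class its median was 0.951 for Ifi200 genes, 0.827 for the T cell genes, 0.783 for the 310 genes of no list and 0.635 for immunoglobulin genes. For genes of other cell types it was 0.310, with 4 of 19 nearer the Aim2-/- mean. Genes picked for a large difference among 5 mice tend to overstate it, which moves a left-out mouse above 0. Of the 425 genes 382 were not called with all 6 mice. That choice favours genes in which the left-out mouse lay toward the Aim2-/- mean, so the high positions are in part set by it. In the fits without each of the other 4 mice, with 1, 1, 3 and 20 calls, the median positions lay between -0.421 and 0.0507.

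Without the mouse Aim2-/- 2, 1143 of 15631 genes (7.31%) were called, all of the 45 among them. On the corresponding scale, with 0 at the mean of the other Aim2-/- libraries and 1 at the WT mean, Aim2-/- 2 had a median position of 0.758 over the 1143 genes. In 900 genes (78.7%) it was nearer WT. Of the 1143 genes 1098 were not called with all 6 mice, so here too the choice of genes favours such positions. The 996 genes of no list gave a median of 0.777, genes of other cell types 0.672, T cell genes 0.641 and immunoglobulin genes 0.181.

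**Figure D3:**
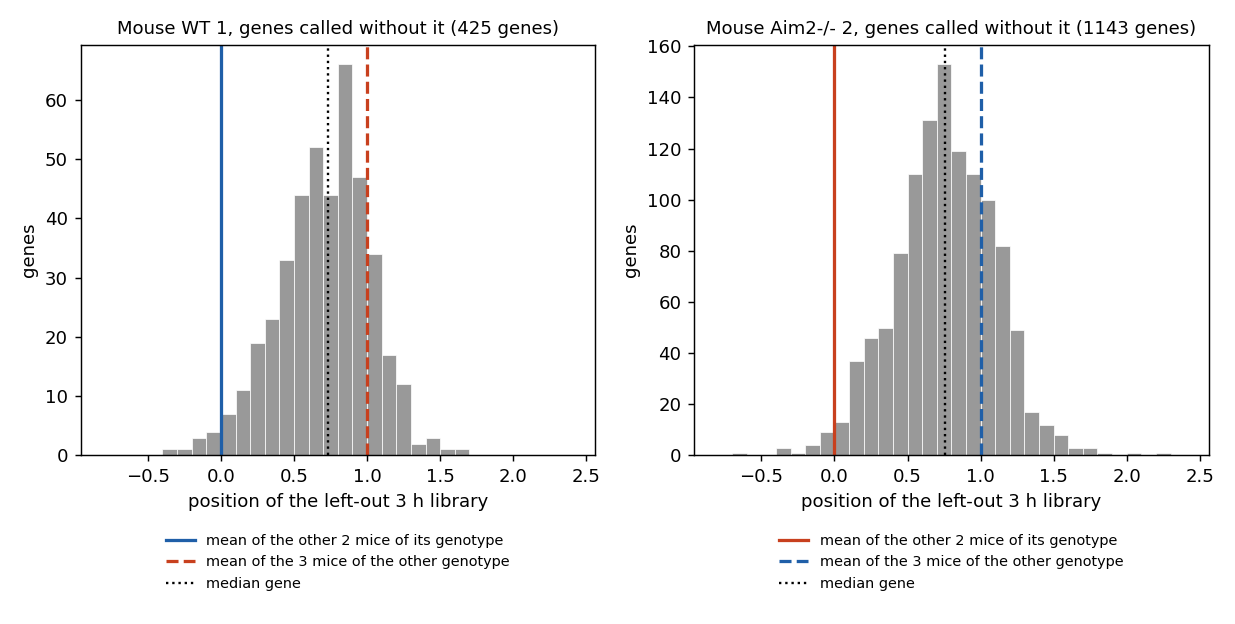
Histograms of the position of the left-out mouse between the 2 genotype means, over the 425 genes called without the mouse labelled WT 1 and the 1143 genes called without Aim2-/- 2; 0 is the mean of the mouse's own genotype without it and 1 the mean of the other genotype. Both distributions centre above 0.5, with medians of 0.731 and 0.758.

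With the main settings, genes of the T cell lists were called where one of these mice was left out and in no fit without another mouse. Without the mouse labelled WT 1, 13 of 188 passed, 11 higher and 2 lower. Values without that mouse are again a description, since it was singled out by its Aim2 level. Lag3, an inhibitory receptor that binds MHC class II, stood at 68.0, 12.9 and 14 CPM in WT and at 68.7, 47.3 and 43.4 CPM in Aim2-/- libraries. The library labelled WT 1 was thus as high as the highest Aim2-/- library, and the log2 difference was 0.75 (adjusted p = 0.526 in edgeR's test) with it and 1.98 (SE 0.26) without it. Il10, an anti-inflammatory cytokine, stood at 27.0, 9.16 and 8.88 CPM against 31.6, 23.1 and 27.6 CPM, with log2 differences of 0.87 and 1.60. Pdcd1, the receptor PD-1, stood at 386, 209 and 206 CPM against 455, 346 and 314 CPM, with 0.48 and 0.84. In Lag3, Il10 and Pdcd1 the library labelled WT 1 lay inside the Aim2-/- range.

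In other T cell genes the groups did not overlap with all 6 mice either. Eomes, a T-box factor of cytotoxic and memory T cells, stood at 44.5, 28.0 and 23.6 CPM against 57.1, 84.1 and 71.9 CPM. Its log2 difference of 1.15 had an adjusted p of 0.0724 in edgeR's test, and it was 1.46 without the mouse labelled WT 1. Ccl5, a chemokine of effector T cells, stood at 125, 76.5 and 88.5 CPM against 175, 171 and 224 CPM, with log2 differences of 0.97 and 1.20. Bhlhe40, a transcription factor needed for cytokine production by T helper cells, stood at 333, 188 and 233 CPM against 510.0, 401 and 403 CPM, with 0.80 and 1.06. Penk, the precursor of enkephalins and a gene of regulatory T cells, stood at 103, 50.8 and 68.8 CPM against 229, 139 and 215 CPM, with 1.39 and 1.70. In Ccl5, Bhlhe40 and Penk the library labelled WT 1 was the highest of WT and still under every Aim2-/- library. Ramp3, a subunit of the receptors for calcitonin gene-related peptide and adrenomedullin, followed the same order with log2 differences of 0.84 and 0.98.

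The other members of the 13 were Il3, a growth factor for basophils and mast cells (1.19 and 2.22), Tigit, an inhibitory receptor (0.54 and 0.78), and the glycolytic enzyme Tpi1 (0.43 and 0.70). Tpi1 has processed copies in the genome, so its counts are uncertain. The 2 that fell were Lef1, a transcription factor of naive T cells, and Lif, a cytokine of the IL-6 family. Lef1 stood at 220.0, 279 and 309 CPM against 129, 197 and 143 CPM, with log2 differences of -0.79 and -0.92. Lif stood at 130.4, 192 and 227 CPM against 88.8, 141 and 146 CPM, with -0.55 and -0.75. Only Lef1 of this pair kept its groups apart with all 6 mice. Without Aim2-/- 2, 20 genes of the T cell lists were called, 11 higher (4.64% of all genes were) and 9 lower (2.67% were). Bhlhe40, Ccl5, Lef1, Penk and Ramp3 were called in both of these fits.

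Read by list, with all 6 mice, the 24 T helper factors had a median log2 difference of 0.21, the 27 cytokines and chemokines 0.23 and the 24 activation receptors 0.21. The 25 genes of resting and naive cells had a median of -0.14, with 19 below 0, and the 31 immediate early genes one of -0.12, with 23 below 0. Of all 15325 genes tested, 7714 lay above 0 and 7603 below 0. Without the mouse labelled WT 1 these 5 medians were 0.20, 0.54, 0.29, -0.22 and -0.12. With scores of 3 marker lists of other cells in the model the T helper factors had a median of 0.00. The cytokines and chemokines turned to -0.33, with 7 of 27 above 0 and 3 called lower, beside 7905 of all 15325 genes above 0 and 4 called lower. Egr3, an immediate early factor that restrains T cell activation, stood at 343, 358 and 204 CPM against 115, 228 and 232 CPM and overlapped between the groups. A regulatory T cell signature was taken from examples the study names. Its 14 genes had a median of 0.56 and 13 lay above 0, although none was called by edgeR. With the marker scores the median was 0.21 and 9 of 14 lay above 0, and without the mouse labelled WT 1 and without scores it was 0.72. That list was chosen by the study and is not independent evidence of its direction. A further list held cytokines and lineage factors of T helper cells that the study measured by other means. None of its 9 genes was called by edgeR with all 6 mice, and 1, Il10, was called without the mouse labelled WT 1. Foxp3, the defining factor of regulatory T cells, stood at 261, 209 and 329 CPM against 326, 287 and 299 CPM, with full overlap and a log2 difference of 0.19 (SE 0.25). Ifng was at 69.3, 34.2 and 42.1 CPM against 63.5, 58.7 and 175 CPM, so that Aim2-/- 4 alone stood above the WT range. Il17a, Il2, Il4 and Tbx21 overlapped between the genotypes, with log2 differences of -0.29, 0.13, -0.51 and -0.10. Gata3, the T helper 2 factor, stood at 158, 147 and 175 CPM against 194, 179 and 190.3 CPM, apart by little and with an adjusted p of 0.338.

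When scores of 3 marker lists (B cell, monocyte and erythroid) entered the edgeR model as terms, 22 genes (0.144%) were called, 11 of them among the 45. Prss34, Mcpt8, Cxcl9, Nmrk1, Sbk1 and Ighm were called in this fit too. It also called 3 T cell cytokine genes, Tnf, Il17a and Il5, and all 3 were lower (0.0261% of all genes were). Tnf stood at 249.6, 243 and 156 CPM against 124, 103 and 173 CPM, and its log2 difference was -0.70 (adjusted p = 0.0873) without the scores and -0.93 (adjusted p = 0.0347) with them. Il17a moved from -0.29 to -2.05 with the scores, although its libraries of both genotypes overlapped at 12.5, 5.34 and 4.25 against 7.74, 1.79 and 8.52 CPM. With the scores and without the mouse labelled WT 1, 339 genes (2.17%) were called, and 10 of the 13 T cell genes above were among them. Il10, Tpi1 and Tigit were not. The scores were read from the same libraries and entered across all 24, so they also carry what these lists did over time.

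The genes next to Aim2 were the ones in which the mouse labelled WT 1 mattered most. The Ifi200 genes lie at chr1:173350879-174031810 in build GRCm38, Aim2 itself at chr1:173350879-173466040. Of the 15 listed genes 13 were tested, and edgeR called none with all 6 mice and 10 without that mouse, 7 lower and 3 higher. Since Aim2, by which that mouse was singled out, lies in this cluster, these counts are a description. Ifi213 stood at 1.57, 43.3 and 62.5 CPM in WT and at 0.817, 1.56 and 1.69 CPM in Aim2-/- libraries. Ifi206 stood at 8.06, 70.8 and 122 CPM against 8.34, 9.81 and 7.67 CPM, and Ifi208 at 16.3, 95.1 and 147 CPM against 10.5, 22.6 and 20.2 CPM. In these genes the library labelled WT 1 was at the Aim2-/- level, and WT 3 and WT 4 were far above it.

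Others ran the opposite way. Ifi204 stood at 28.6, 0.425 and 0.514 CPM in WT and at 27.6, 28.6 and 37.4 CPM in Aim2-/- libraries, a log2 difference of 1.66 with all 6 mice and of 6.03 without the mouse labelled WT 1. Ifi211 stood at 8.75, 0.519 and 0.794 CPM against 8.90, 10.3 and 10.7 CPM. Ifi202b was at 3.61 CPM in the library labelled WT 1, at 0 in both other WT libraries and at 5.16, 3.67 and 3.72 CPM in Aim2-/- libraries, at least 29.5-fold higher than in WT 3 and WT 4 with 3 counts taken as the limit per library. In all 10 genes the library labelled WT 1 was nearer the Aim2-/- mean than the mean of WT 3 and WT 4. Members of this family share sequence, and the models of Ifi203 and Mndal overlap, so how reads were split among them is uncertain. Within 10 Mb of Aim2, 26 of 184 genes tested (14.1%) were called without that mouse, beside 399 (2.58%) of the rest, and 1 with all 6 mice. Chromosome 1 was not the only place: Ide, the insulin-degrading enzyme on chromosome 19, stood at 172, 79.8 and 80.4 CPM against 167, 173 and 146 CPM, and Tmem181b-ps on chromosome 17 at 5.42, 0 and 0.0935 CPM against 6.10, 4.40 and 5.32 CPM.

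**Figure D4:**
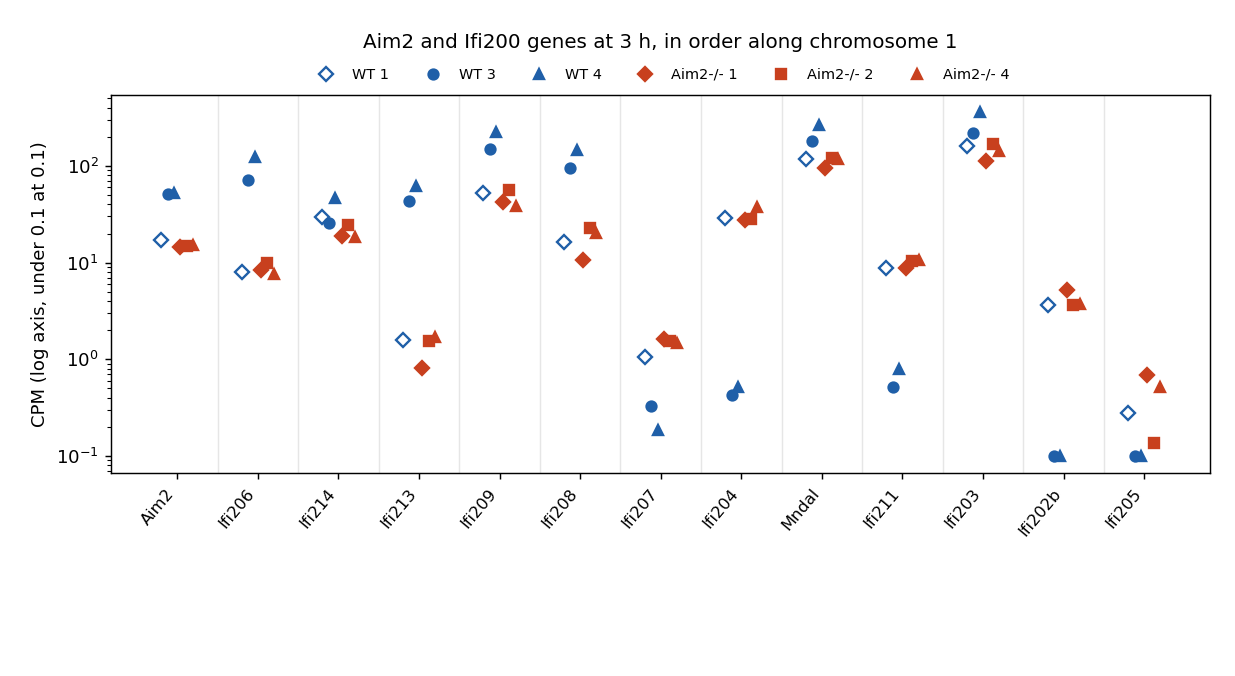
CPM of Aim2 and of the other tested Ifi200 genes in the 6 libraries of 3 h, on a log axis, 1 point per library. The open diamond, the library labelled WT 1, sits with the Aim2-/- points and away from WT 3 and WT 4 in genes such as Ifi213 (1.57 against 43.3 and 62.5 CPM) and Ifi204 (28.6 against 0.425 and 0.514 CPM).

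Whether the genotype difference at 3 h was another than at the other times was tested as a contrast in the same model. With edgeR no gene was called against 0, 6 or 24 h (0%), with 653, 1221 and 1238 genes at an unadjusted p under 0.05. Since each mouse gave cells at every time, the contrast was also fitted with the mouse as a block. Then 9 genes (0.0587%) were called against 0 h, none against 6 h and 80 (0.522%) against 24 h. All 9 had a lower genotype difference at 3 h than at 0 h. Gm12250, Irgm2, Igtp and Tgtp2 encode interferon-gamma-induced GTPases of cell-autonomous immunity, and Irf1 a transcription factor of the interferon response. The feature counted as Gm12250, at chr11:58187739-58189012, is annotated as a processed pseudogene. H2-T23 encodes the non-classical MHC class I chain Qa-1, Il4ra a receptor chain for IL-4 and IL-13, and Pim2 a kinase induced by cytokines.

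Gm12250 stood at 13.7, 11.1 and 16.4 CPM in WT and at 22.5, 21.3 and 25.1 CPM in Aim2-/- libraries at 0 h, and at 166, 192 and 307 CPM against 123, 182 and 124 CPM at 3 h. It was thus higher in every Aim2-/- library before stimulation, and at 3 h the groups overlapped with the Aim2-/- mean below. The difference of the log2 differences was -1.37 (SE 0.18, adjusted p = 0.00386 in edgeR's test with mouse as a block). Irgm2 went from 123, 146 and 173 CPM against 141, 199 and 189 CPM at 0 h to 344, 433 and 544 CPM against 262, 312 and 282 CPM at 3 h, where the groups no longer overlapped, a difference of -0.87 (SE 0.13). Irf1 went from 409, 450.1 and 487 CPM against 458, 497 and 532 CPM to 1318, 1627 and 1759 CPM against 915, 1199 and 1238 CPM, a difference of -0.63. Every library had more of these 3 genes at 3 h than any had at 0 h, and the Aim2-/- libraries had the lower 3 h means.

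The other differences were -0.85 for Il4ra, -0.84 for Tgtp2, -0.74 for Pim2, -0.73 for H2-T23, -0.71 for Igtp and -1.91 for the immunoglobulin segment Igkv15-103. Over the 23 genes of the interferon-gamma list, 3 were called in this contrast (0.0587% of all genes were) and 21 had a difference below 0. The share of all genes below 0 in this contrast is not given here, so the 21 cannot be judged against it. At 3 h by itself that list had a median log2 difference of -0.30, with 18 of 23 below 0 beside 7603 of all 15325 genes. Cxcl9 of the same list was among the genes called higher. The models of Igtp and Irgm2 overlap, and Tgtp2 has the near-identical copy Tgtp1, so their counts are not fully separate. The 9 calls rested on several mice: with the mouse block and 1 mouse left out, none was called without WT 3, WT 4 or Aim2-/- 4, 2 without Aim2-/- 1, 4 without Aim2-/- 2 and 31 without the mouse labelled WT 1, of which 8 were among the 9. In each of these 6 fits all 9 differences stayed below 0.

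**Figure D5:**
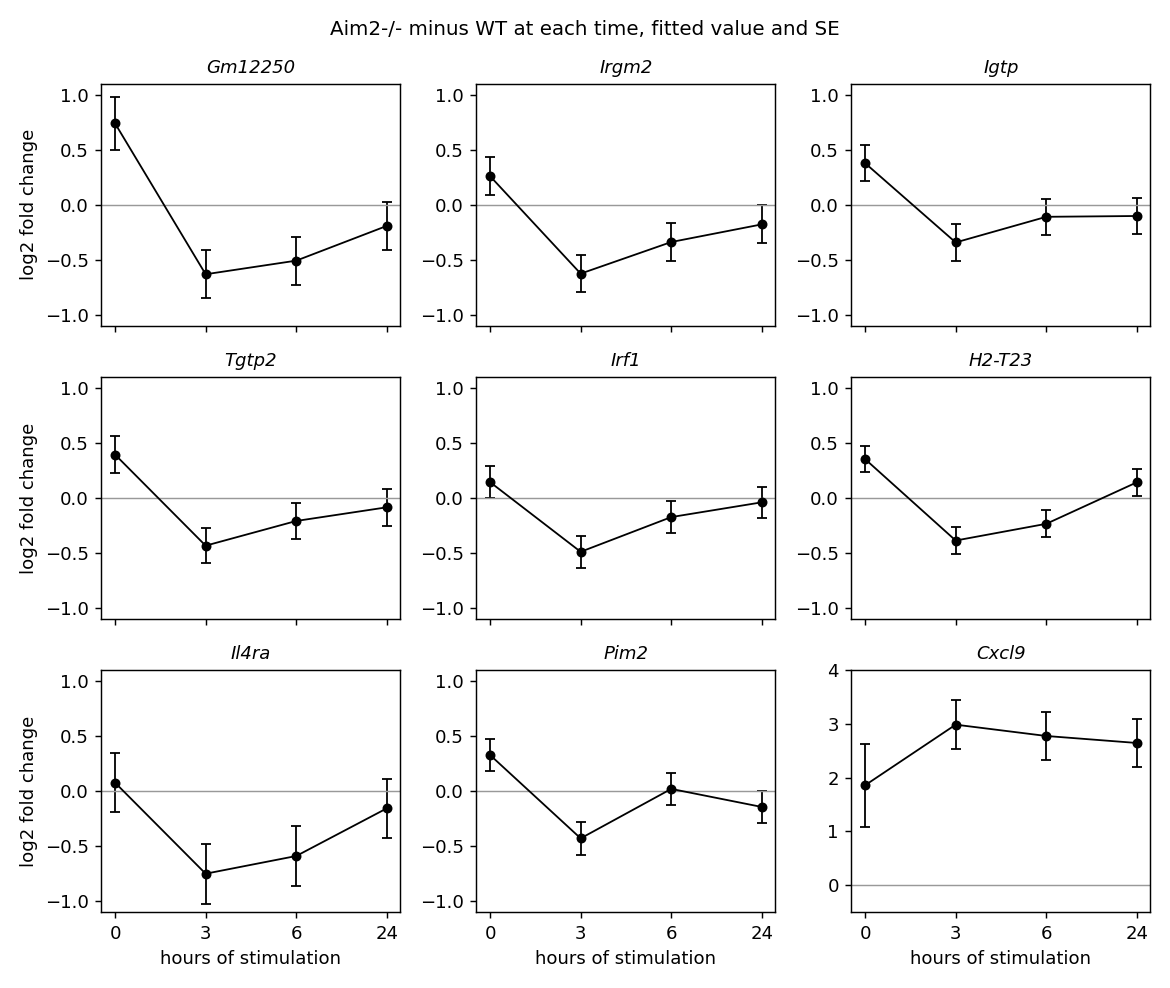
Log2 difference between Aim2-/- and WT (points) with its standard error (bars) at 0, 3, 6 and 24 h for 9 genes, from the model over all 24 libraries; times are evenly spaced on the axis, and the line at 0 marks no difference. Gm12250 goes from 0.74 at 0 h to -0.63 at 3 h and Irgm2 from 0.26 to -0.63, whereas Cxcl9 lies above 0 at every time, at 2.98 at 3 h.

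Promoters of the 9 genes are shown for the 4 GTPases, because their genotype differences were all lower at 3 h than at 0 h and 3 of the sequences carry 2 interferon motifs side by side. The sequences are from RefSeq for build GRCm38.p6, run from 250 bases before to 50 after the annotated start, and are written 5′ to 3′ on the strand of the gene. They are chr11:58199306-58199605 (plus strand) for Igtp, chr11:58214727-58215026 (plus) for Irgm2, chr11:49064163-49064462 (minus) for Tgtp2 and chr11:58183593-58183892 (plus) for Gm12250. The window of Gm12250 is that of its RefSeq start. It lies upstream of the feature counted under that name, at chr11:58187739-58189012, and does not reach it. Capitals mark matches on either strand to the core of the interferon-stimulated response element, searched as GAAA, any 2 bases and GAAA again, and to TTCNNNGAA, the gamma-activated site of interferon-gamma signalling. No 2 capital runs overlap.
Igtp: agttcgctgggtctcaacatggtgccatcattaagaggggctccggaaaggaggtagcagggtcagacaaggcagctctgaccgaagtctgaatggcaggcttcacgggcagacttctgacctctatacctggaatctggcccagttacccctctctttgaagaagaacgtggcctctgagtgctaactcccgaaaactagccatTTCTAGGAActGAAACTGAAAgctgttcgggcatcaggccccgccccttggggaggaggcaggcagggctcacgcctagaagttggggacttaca
Irgm2: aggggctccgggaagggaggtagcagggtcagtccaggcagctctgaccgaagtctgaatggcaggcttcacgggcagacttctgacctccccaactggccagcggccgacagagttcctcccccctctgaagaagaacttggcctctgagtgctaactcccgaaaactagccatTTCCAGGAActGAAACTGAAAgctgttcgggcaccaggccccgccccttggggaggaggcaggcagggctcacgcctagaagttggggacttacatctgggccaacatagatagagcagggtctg
Tgtp2: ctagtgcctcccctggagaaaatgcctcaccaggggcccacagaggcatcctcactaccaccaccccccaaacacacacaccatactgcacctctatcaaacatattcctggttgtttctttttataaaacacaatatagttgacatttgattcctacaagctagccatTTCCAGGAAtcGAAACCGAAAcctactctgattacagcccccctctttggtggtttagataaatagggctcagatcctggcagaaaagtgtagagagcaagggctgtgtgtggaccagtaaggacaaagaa
Gm12250: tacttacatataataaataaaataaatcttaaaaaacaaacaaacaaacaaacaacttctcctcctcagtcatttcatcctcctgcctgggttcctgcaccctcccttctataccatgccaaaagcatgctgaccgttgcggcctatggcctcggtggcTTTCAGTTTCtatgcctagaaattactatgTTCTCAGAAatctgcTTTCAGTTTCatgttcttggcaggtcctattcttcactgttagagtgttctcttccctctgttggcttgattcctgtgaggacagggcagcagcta

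In Igtp, Irgm2 and Tgtp2 the 2 motifs stood in the same order with 2 bases between them. Such a gap occurred in 5 of 32851 mouse promoters of this length (0.0152%), those of Gm12185, Igtp, Irgm2, Tgtp1 and Tgtp2, a family with related sequences. Gm12250 held 2 response elements on the other strand, 6 bases being the shortest distance to its activated site. Of the 9 genes 8 had a promoter in the table, 5 with the response element core and 5 with the activated site, beside 3.44% and 8.30% of all promoters. No match to either was present in the windows of Il4ra and Pim2. A match describes the letters of these windows and no measurement of binding. Of the Ifi200 list 12 of 15 genes had a promoter in the table, and 9 of them held the response element core, genes called lower (Ifi213, Ifi206, Ifi208) and higher (Ifi211) without the mouse labelled WT 1 among them.

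Against 24 h, 68 of the 80 called genes (0.444% of all tested) had a lower genotype difference at 3 h and 12 (0.0783%) a higher one. Oas1b went from -0.93 at 3 h to 0.56 at 24 h, and Arhgef18, a guanine nucleotide exchange factor, from -0.56 to 0.34. Gpr146, an orphan receptor, went from -0.76 to 0.32, and Igfbp4, a gene of naive T cells, from -0.43 to 0.60. Il17a went from -0.29 to 1.82. Ighm went the other way, from 2.90 to 1.47. Of the 80, 3 were in T cell lists, 4 in interferon lists, 1 was an immunoglobulin gene and 71 were in no list. Leaving out 1 mouse gave between 2 (without WT 3) and 683 (without Aim2-/- 2) calls, with 16 without WT 4, 4 without Aim2-/- 1, 6 without Aim2-/- 4 and 221 without the mouse labelled WT 1. In all 6 of those fits the same number of the 80, 68, lay below 0.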

How the data were processed

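Per the labels and the methods of the study, CD4+ T cells were taken from spleen by negative selection, stimulated with anti-CD3 and anti-CD28, and sequenced as stranded mRNA libraries. Reads were aligned by the authors with STAR (GRCm38, Ensembl annotation), and the deposited values are raw counts per gene, not normalized, for 54446 identifiers. Versions, and whether counting used the strand, are not given in the sources used here, so antisense and overlapping genes and genes with near-identical copies are uncertain. Symbols and positions came from an annotation of the same build. The total counts of the 6 libraries were near equal, and 3 counts, the limit of detection used, correspond to 0.129 to 0.142 CPM, covering counting error only.

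Genotypes were compared with the quasi-likelihood F test of edgeR 4.0.16 (R 4.3.3), two-sided. The model took all 24 libraries, a mean for each genotype and time, and TMM factors. The filter filterByExpr (minimum count 10) passed 15325 genes, and 16042 others with counts were not tested. The spread is shared by all 8 groups, and the 16 residual degrees of freedom count libraries of 6 mice that were each sampled 4 times. The common dispersion was 0.0346. The Benjamini-Hochberg adjustment ran over all genes tested in a comparison. Fits without a mouse drop its 4 libraries. DESeq2 1.42.0 and limma 3.58.1 (voom) served as alternatives. Log2 CPM used a prior count of 2. Summed CPM were compared by exact permutation tests. Marker scores, entered as terms over all 24 libraries, are the mean standardised log2 CPM of the B cell, monocyte and erythroid lists, with granulocyte genes as a 4th where named. On simulated data with the same library sizes, 61% of genes changed 2-fold and 83% of those changed 4-fold were called, and 3 of 15125 unchanged genes. The simulation drew all libraries as independent, with no deviation shared by the libraries of 1 mouse. These shares therefore do not measure the error rates of the real libraries.

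The members and lists were chosen with earlier results of these data known. Named are Aim2 and its neighbours, every gene called lower, called genes of T cell and response lists, the leading called genes of other lists, up to 12 called genes of no list, the genes the study measured, the largest changes of each T cell list, the calls of the time contrasts and genes with the lowest p without the mouse labelled WT 1. Libraries of 1 mouse deviated together, with r from 0.139 to 0.567 over 36 pairs, so the mouse served as a block for differences between times. Some genes that the rule names are not reported here.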

Additional observations from a re-analysis of the deposited data

Results flagged for a closer look

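Both results here concern the same contrast, the genotype difference at 3 h against that at another time with mouse as a block, and neither has been weighed against a cause. Against 0 h, 9 genes had a genotype difference at 3 h that differed by edgeR's test of the difference itself, all in the same direction (lower at 3 h). Gm12250, annotated as a processed pseudogene, had the lowest adjusted p in that test, with a difference of -1.37 on the log2 scale. At 0 h it was higher in 3 of 3 Aim2-/- libraries than in any WT library. The largest difference, -1.91, was that of the immunoglobulin segment Igkv15-103. Against 24 h, 80 genes differed by the same test, 68 of them lower at 3 h. Among these were H2-Q5 at -0.93 and H2-K2 at -1.16, MHC class I genes annotated as a polymorphic and as an unprocessed pseudogene. Without the block neither contrast gave a call. Groups of 3 libraries are too small for a search for single outlying libraries.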

How the results depend on the processing

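The 45 calls became 307 with DESeq2, 775 of 31367 genes without a filter on low counts, 2 with the 6 libraries of 3 h alone, 211 with voom and mouse as a random effect (correlation 0.310), 187 without the 3 h library of the mouse labelled WT 1, 22 with 3 marker scores, 26 without immunoglobulin genes and 339 with 3 scores and without that mouse. They were 43 to 63 with RLE factors, library totals, plain voom, a minimum mean of 1 CPM or 4 scores, and 1 to 1143 with 1 mouse left out. Aim2 passed the threshold without the filter (-1.44), without the mouse labelled WT 1 (-1.79), and with 3 scores and without that mouse (-1.77). That mouse was singled out by this gene, so calls without it are a description. Over the mice left out Aim2 ran from -1.79 to -1.19. Under the other alternatives Aim2 kept its direction and was not called. The numbers of the mice mark different animals in the 2 genotypes, and the numbers 1 and 4 occur in both; same-numbered libraries correlated at 0.252, the highest of all 9 pairs, and at -0.165, beside -0.266 to 0.251 for the others, and the labels do not tie the numbers to each other. With the mouse number as a replicate block 2324 genes were called and Il17a turned to 0.065.

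With mouse as a replicate block the difference of the genotype effect gave 9 calls against 0 h and 80 against 24 h. In fits added after seeing the data, with 1 mouse left out of that block, there were 0 to 31 against 0 h, 0 to 6 against 6 h and 2 to 683 against 24 h (221 without the mouse labelled WT 1 and 16 without WT 4).

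For 76 named genes beside Aim2, 1512 alternative values were computed, of which 1162 kept direction and side of the threshold, 178 lost the call, 156 gained one and 16 turned sign. Those 16 belong to 6 genes with no call in the main fit. With 3 scores Foxp3 was -0.18, Il2 -0.18 and Rsad2 -0.081. With 4 scores Foxp3 was -0.15, Tbx21 0.20 and Rsad2 -0.14. With 3 scores and without the mouse labelled WT 1 Foxp3 was -0.21 and Rsad2 -0.22. Without the 3 h library of that mouse Il17a was 0.33. With 1 mouse left out Tbx21 ran from -0.37 to 0.13, Il17a from -0.62 to 0.33, Il2 from -0.20 to 0.54 and Pycard from -0.25 to 0.0097. The ratio of megakaryocyte sums, 1.02, was 0.910 without the mouse labelled WT 1. The causes were not tested. At this depth genes near 0.14 CPM rest on 3 counts, so differences of genes this low were not detectable.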
